A study of Sus scrofa with 3 samples.

Results

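IGF1, IGFALS, IGFBP1 and PRLR, 4 of the 25322 genes in the deposited tables, were followed in liver libraries of male pigs of 3 breeds at postnatal day 90. They were chosen by symbol, each matched to 1 Ensembl gene ID in all 3 tables, and all 4 passed the expression filter that 13228 gene IDs passed, a CPM (a gene's count as a scaled share of its library's counts) of at least 1 in at least 1 library. The labels give 1 total RNA library per breed (Enshi black, Large White, Chinese wild boar) and name no treatment, diet or feeding state. They mention 3 male pigs without saying whether each library comes from 1 animal. Breed, animal and library cannot be told apart in this design, so no difference below has a replicate check and none carries a p-value.

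IGF1 is the hormone through which growth hormone acts on much of body growth, and the liver is the main source of the IGF1 in blood. Growth hormone binds its receptor on hepatocytes, JAK2 and STAT5 carry the signal, and transcription of IGF1 and IGFALS follows. IGFALS, the acid-labile subunit, joins IGF1 and a binding protein in the large complex that keeps IGF1 in the circulation. IGFBP1 is a small liver binding protein whose transcription insulin represses and fasting raises, through FOXO factors among others. PRLR, the prolactin receptor, belongs to the same cytokine receptor family as the growth hormone receptor and also signals through JAK2 and STAT5.

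Counts over genes came to 20654571 in Enshi black, 20215871 in Chinese wild boar and 19982627 in Large White. Where 3 values follow each other below without names, their order is Enshi black, Large White, Chinese wild boar. Levels are given as CPM after TMM scaling, a correction for the make-up of each library. The interval after a level is the exact 95% Poisson interval and the interval after a fold the exact 95% binomial interval. Both describe counting error alone. A gene is called higher or lower when the interval bound nearest to 1 lies at least 2-fold away. Levels of different genes are not compared, because the counts are not corrected for transcript length.

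IGF1 itself was lowest in Enshi black and highest in Chinese wild boar. Enshi black had 123 counts, Large White 310 and Chinese wild boar 671, or 5.70 CPM (4.74 to 6.80), 15.9 CPM (14.1 to 17.7) and 33.9 CPM (31.4 to 36.6). The 3 counting intervals did not overlap. Enshi black was called lower than Chinese wild boar, by 5.95-fold (4.90 to 7.27), and lower than Large White, by 2.78-fold (2.25 to 3.46). The call against Large White was lost with a stricter interval of 0.1% error in place of 5%, whose near bound was 1.96-fold. Chinese wild boar stood at 2.14 times the Large White level (1.87 to 2.45), which did not meet the 2-fold bound.

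IGFALS followed a different order, with Enshi black apart from the other 2 libraries. Large White had 5266 counts, Chinese wild boar 4602 and Enshi black 1392, giving in the order above 64.5 CPM (61.2 to 68.0), 269.5 CPM (262 to 277) and 233 CPM (226 to 239). Enshi black was lower than Large White by 4.18-fold (3.94 to 4.44) and lower than Chinese wild boar by 3.61-fold (3.40 to 3.83). The ratio of Chinese wild boar to Large White was 0.863 (0.829 to 0.898). That interval leaves out 1, so the small gap between these libraries exceeded counting error, but it was far from the 2-fold bound.

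IGFBP1 had the widest range of the 4 genes and was highest in Large White. Large White had 10631 counts, Chinese wild boar 2332 and Enshi black 374. In the order given above these were 17.3 CPM (15.6 to 19.2), 544 CPM (534 to 555) and 118 CPM (113 to 123). All 3 comparisons were called. Enshi black was 31.4-fold lower than Large White (28.3 to 34.9) and 6.80-fold lower than Chinese wild boar (6.10 to 7.61), and Chinese wild boar was 4.62-fold lower than Large White (4.41 to 4.83).

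PRLR ran the other way and was lowest in Large White. Counts were few, with 31 in Large White, 116 in Chinese wild boar and 173 in Enshi black, so the interval in Large White was the widest in proportion of all 12 levels of the 4 genes. The levels in the order given above were 8.02 CPM (6.87 to 9.30), 1.59 CPM (1.08 to 2.25) and 5.86 CPM (4.84 to 7.03). Enshi black was 5.05-fold higher than Large White (3.43 to 7.66) and Chinese wild boar 3.70-fold higher (2.47 to 5.68). The second call was lost with the stricter interval, whose near bound was 1.93-fold. The intervals of Enshi black and Chinese wild boar overlapped, and their ratio of 1.37 (1.07 to 1.75) was not called.

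**Figure D1:**
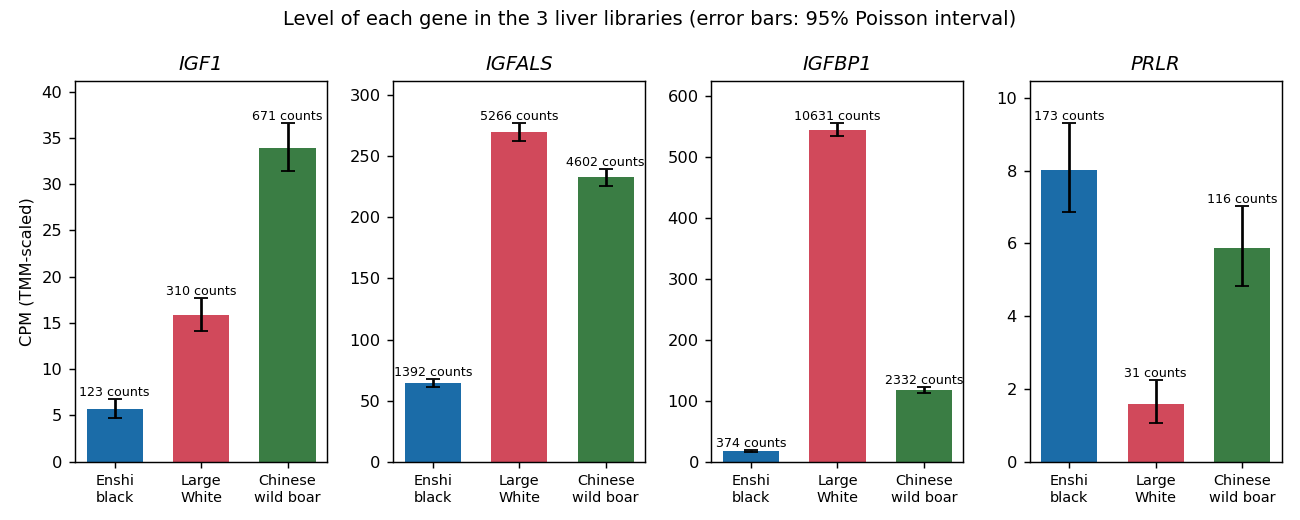
Bars show the TMM-scaled CPM of IGF1, IGFALS, IGFBP1 and PRLR in the Enshi black, Large White and Chinese wild boar libraries, each panel on its own linear axis from 0, with the 95% Poisson interval and the count above each bar. IGF1 climbs from 5.70 to 33.9 CPM, IGFALS and IGFBP1 are lowest in Enshi black, and PRLR is lowest in Large White at 1.59 CPM.

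The same rule was applied to all 13228 expressed gene IDs. Between Enshi black and Large White, 8.39% of expressed gene IDs were called lower and 4.69% higher in Enshi black, beside 3 of the 4 genes lower and 1 higher. Between Chinese wild boar and Large White, 3.74% were called lower and 2.96% higher in Chinese wild boar, beside 1 lower and 1 higher. Between Enshi black and Chinese wild boar, 7.10% were called lower and 4.03% higher in Enshi black, beside 3 lower and none higher. The 4 genes were picked with these differences known, so nothing is read from their counts against those shares.

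Enshi black was lower than both other libraries for IGF1, IGFALS and IGFBP1, a pattern that 4.59% of expressed gene IDs shared. Large White was higher than both others for IGFBP1, as were 1.69% of gene IDs, and lower than both others for PRLR, as were 1.07%. Ordered by the interval bound nearest to 1, IGFBP1 was number 82 of the 6531 gene IDs lower in Enshi black relative to Large White, and IGFALS and IGF1 were numbers 454 and 897. PRLR was number 181 of the 6694 with a higher level. On the log2 scale with a prior count of 2, the differences of Enshi black minus Large White were -1.46 for IGF1, -2.06 for IGFALS, -4.97 for IGFBP1 and 2.26 for PRLR, and the median over all expressed gene IDs was 0.01.

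**Figure D2:**
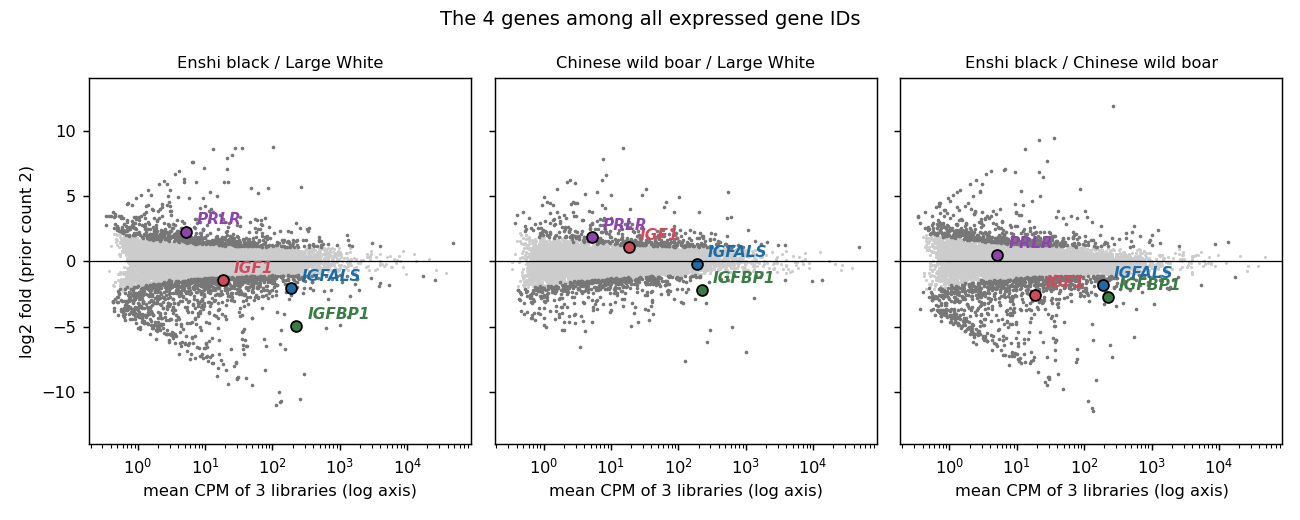
Each dot is 1 of 13228 expressed gene IDs, with its mean CPM over the 3 libraries on a log axis and its log2 fold (prior count 2) on the vertical axis. Dark grey dots passed the size rule, light grey did not, and the coloured circles are the 4 genes. IGFBP1 lies at -4.97 in the left panel, while IGFALS is near 0 in the middle panel at -0.21.

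The balance between the genes also differed from library to library. A ratio of 2 genes' counts within a library needs no scaling between libraries, and gene length cancels when such ratios are compared. For each IGF1 count Enshi black had 3.04 IGFBP1 counts, Large White 34.3 and Chinese wild boar 3.48. Large White therefore stood alone. Its ratio was 11.3 times that of Enshi black (8.85 to 14.3) and 9.87 times that of Chinese wild boar (8.54 to 11.4), whereas the ratio of Enshi black to Chinese wild boar was 0.875 (0.699 to 1.10), an interval that holds 1.

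The same held in direction for IGFBP1 against IGFALS. For each IGFALS count Enshi black had 0.269 IGFBP1 counts, Large White 2.02 and Chinese wild boar 0.507. Large White exceeded Enshi black by 7.51-fold (6.66 to 8.48) and Chinese wild boar by 3.98-fold (3.75 to 4.23). IGFALS per IGF1 varied least, with Enshi black at 11.3, Large White at 17.0 and Chinese wild boar at 6.86. Chinese wild boar was 2.48-fold below Large White in this last ratio (2.15 to 2.86), and Enshi black stood at 0.666 of it (0.534 to 0.835).

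Among the counts of the 5 IGF-binding proteins that could be measured, IGFBP1, IGFBP4, IGFBP5, IGFBP6 and IGFBP7, the share taken by IGFBP1 was 1.97% in Enshi black (exact binomial 95% interval 1.78 to 2.18), 34.7% in Large White (34.2 to 35.3) and 12.5% in Chinese wild boar (12.0 to 13.0). The other 4 together had 862 CPM, 1023 CPM and 827 CPM. The shift in share thus came with a change in IGFBP1 far wider than that in the sum of the rest.

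**Figure D3:**
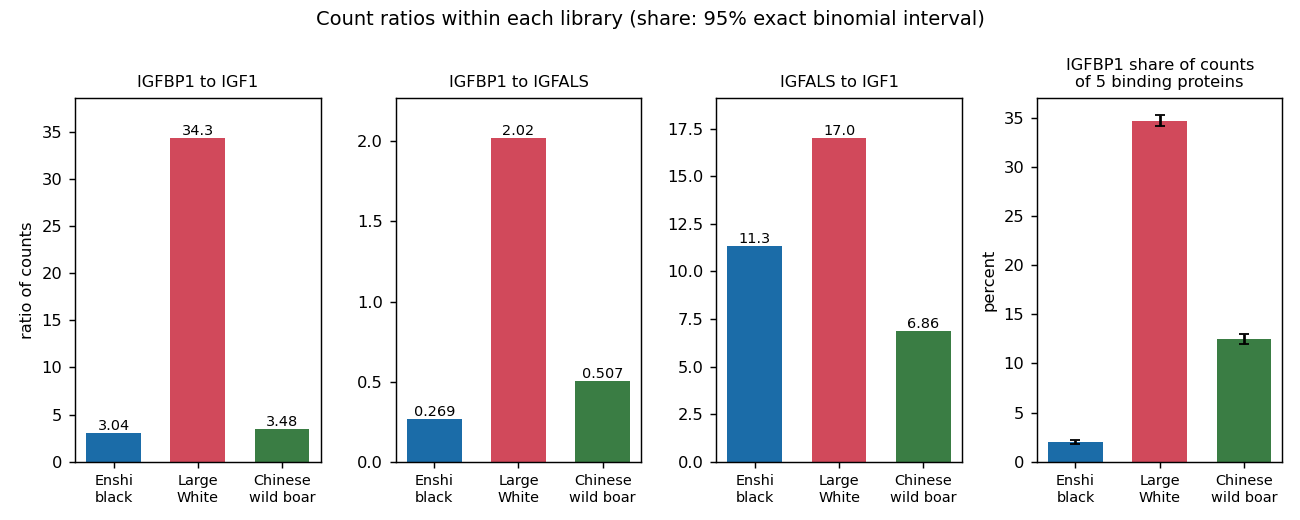
The first 3 panels show ratios of counts within each library for IGFBP1 to IGF1, IGFBP1 to IGFALS and IGFALS to IGF1, and the last shows the percentage of the counts of 5 IGF-binding proteins that fell on IGFBP1, with its 95% exact binomial interval. The IGFBP1 to IGF1 ratio is 34.3 in Large White against 3.04 and 3.48 in the other libraries, and the IGFBP1 share runs from 1.97% to 34.7%.

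The other genes of the IGF and growth hormone axis were examined next. Of 34 genes listed for the axis, 28 had a matched gene ID and 25 were expressed, 21 of them besides the 4 genes above. Among those 21, Enshi black had 1 called higher and none lower than Large White, Chinese wild boar 1 lower and none higher than Large White, and Enshi black 1 higher and none lower than Chinese wild boar. Over all expressed gene IDs, 4.69%, 2.96% and 4.03% were called higher in these pairs, and 8.39%, 3.74% and 7.10% lower. No result about the axis is read from these counts. The median log2 folds of the 21 genes were -0.07, -0.22 and 0.06 in that order, beside 0.0082, 0.0010 and 0.0061 for all expressed gene IDs. IGF2, IGFBP2, IGFBP3, SOCS2, SOCS3 and CISH had no matched gene ID and were not analysed here.

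Among ligands and receptors, IGF2R, which clears IGF2 from the cell surface, had 133, 153 and 119 CPM. The insulin receptor INSR had 16.3, 11.9 and 13.3 CPM. Neither was called in any comparison. IGF1R, the receptor for IGF1, had no count in any library, where 3 counts would be 0.139, 0.154 and 0.152 CPM. Whether its matched gene ID collects the reads of the gene was not tested, so absence of the transcript is not shown. INSRR, a relative of the insulin receptor, had 5, 14 and 2 counts and was below the expression filter.

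No IGFBP other than IGFBP1 was called. IGFBP4, which binds IGF1 and IGF2, had 738, 882 and 694 CPM, and Large White exceeded Enshi black by 1.19-fold (1.17 to 1.22). IGFBP7, a secreted protein with low affinity for IGFs, had 115, 133 and 126 CPM. IGFBP5 had 6.63, 6.70 and 5.76 CPM, and its ratio of Enshi black to Large White had an interval from 0.774 to 1.26. IGFBP6, at 33, 18 and 32 counts, could not be placed more closely than between 0.908 and 3.13 times for the same pair.

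Among the proteases that cut binding proteins and the stanniocalcins that block them, STC1 and STC2 were called. STC2, an inhibitor of the pappalysins, had 131, 25 and 74 counts. Enshi black was 4.74-fold higher than Large White (3.08 to 7.60), and Chinese wild boar stood at 2.92 times Large White (1.84 to 4.80) without a call. STC2 was thus lowest in Large White, in the same library order as PRLR. STC1 had 45, 38 and 8 counts and was lower in Chinese wild boar than in Large White by 4.81-fold (2.21 to 11.9) and than in Enshi black by 5.16-fold (2.41 to 12.7). Both STC1 calls were lost with the stricter interval. PAPPA2, a protease of IGFBP3 and IGFBP5, had 27, 30 and 32 counts with no call, the serine protease HTRA1 379, 488 and 544 counts with no call, and PAPPA 11, 2 and 3 counts, below the filter.

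Among the 12 expressed genes of growth hormone and prolactin signalling, only PRLR was called. The shares over all expressed gene IDs are those given above for the axis. The growth hormone receptor GHR had 73.9, 50.4 and 90.4 CPM. Its fold over Large White was 1.47 in Enshi black (1.35 to 1.59) and 1.79 in Chinese wild boar (1.66 to 1.94). GHR was thus lowest in Large White, without a call. The part of GHR in the levels of IGF1 and IGFALS was not tested. The kinase JAK2 had 7.51, 7.16 and 4.45 CPM. The transcription factors STAT5A, at 26.7, 28.0 and 25.6 CPM, and STAT5B, at 37.7, 54.6 and 41.0 CPM, also were not called. STAT5B was 1.45-fold lower in Enshi black than in Large White (1.32 to 1.59).

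The feedback inhibitor SOCS1 had 28.8, 20.7 and 17.4 CPM. BCL6, a repressor that opposes STAT5 at shared sites, had 36.7, 56.0 and 71.4 CPM, and its largest gap was 1.94-fold between Enshi black and Chinese wild boar (1.78 to 2.12). The adaptor SH2B1, which binds JAK2, had 21.4, 37.3 and 30.8 CPM. The tyrosine phosphatases PTPN1, PTPN2, PTPN6 and PTPN11 were not called, with levels of Enshi black over Large White between 0.760 (PTPN6) and 1.42 (PTPN11).

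**Figure D4:**
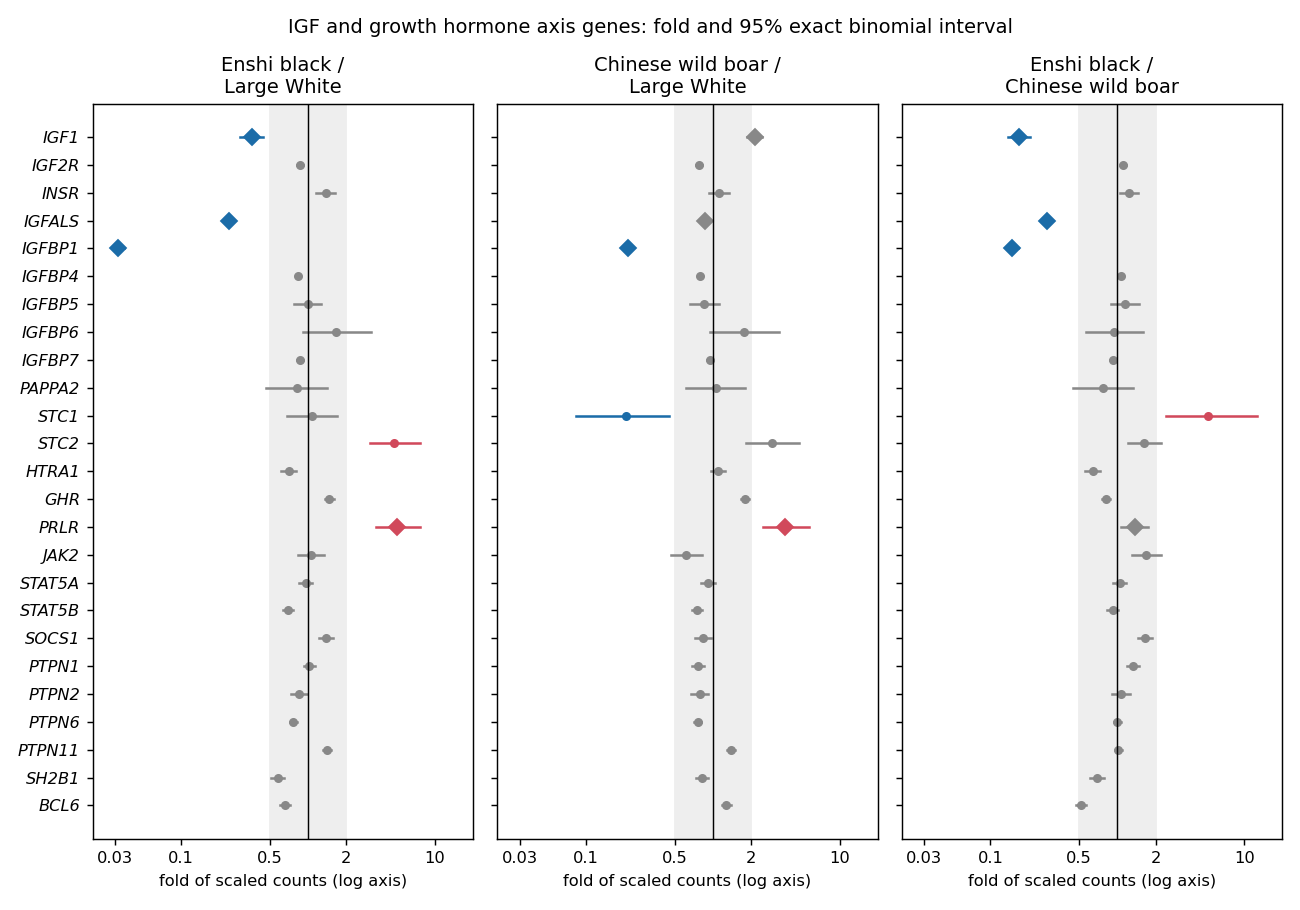
Points show the fold of scaled counts on a log axis for the 25 expressed genes of the IGF and growth hormone axis in the 3 comparisons, with 95% exact binomial intervals; diamonds are IGF1, IGFALS, IGFBP1 and PRLR. Red marks genes called higher in the first-named library, blue lower, grey not called, and the grey band spans 0.5 to 2. Outside the 4 genes, STC1 and STC2 are the called genes.

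Genes of insulin signalling and of the fasting response were examined because insulin and feeding act on IGFBP1 and IGF1. Of 10 expressed insulin signalling genes, none was called higher in any comparison. In Enshi black 2 were lower than in Large White and 1 lower than in Chinese wild boar, and in Chinese wild boar 1 was lower than in Large White, beside 8.39%, 7.10% and 3.74% of all expressed gene IDs for these pairs. Against Large White the median log2 folds were -0.48 in Enshi black and -0.24 in Chinese wild boar, and that of Enshi black against Chinese wild boar was -0.17. IRS1, an adaptor of the insulin and IGF1 receptors, had 23.6, 72.6 and 26.8 CPM. Like IGFBP1 it was highest in Large White, of whose level Enshi black had 0.325 (0.294 to 0.360) and Chinese wild boar 0.369 (0.333 to 0.408). PIK3R1, a regulatory subunit of PI3-kinase, had 10, 105 and 65 counts and was 11.6-fold lower in Enshi black than in Large White (6.06 to 24.9). FOXO1, a factor that insulin holds out of the nucleus, had 30.9, 43.4 and 34.7 CPM and was not called.

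Of 8 expressed genes that fasting or low insulin raises, IGFBP1 among them, Enshi black had 2 lower than Large White and none higher (median log2 fold -0.33). In Chinese wild boar against Large White 3 were higher and 1 lower (0.52), and in Enshi black against Chinese wild boar 5 were lower and none higher (-1.25). The shares of all expressed gene IDs were 8.39% lower for the first pair, 2.96% higher and 3.74% lower for the second, and 7.10% lower for the third. PCK1, the entry enzyme of gluconeogenesis, had 577, 937 and 1345 CPM. PDK4, which shuts off pyruvate oxidation, had 27.8, 75.9 and 166 CPM, and TAT, tyrosine aminotransferase, 280 CPM, 517 CPM and 681 CPM. These 3 genes had the library order of IGF1, lowest in Enshi black and highest in Chinese wild boar. Another 3 were lowest in Large White, CPT1A, the carnitine transferase of fatty acid oxidation, at 208, 108 and 372 CPM, the fasting hormone FGF21 at 2.78, 1.13 and 20.6 CPM, and ANGPTL4, an inhibitor of lipoprotein lipase, at 524, 379 and 542 CPM. The coactivator PPARGC1A had 19.5, 18.8 and 15.8 CPM. IGFBP1 alone among the 8 had its highest level in Large White. Chinese wild boar was 4.62-fold below Large White for IGFBP1. It was above Large White for PDK4 by 2.18-fold (2.05 to 2.32) and for CPT1A by 3.44-fold (3.28 to 3.62). For FGF21 it was above by 18.3-fold (11.9 to 29.6). The labels give no feeding state, and the part of feeding or insulin in the levels of the 4 genes was not tested.

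Stress can also raise IGFBP1. Of 5 expressed genes listed for stress, ASNS, a target of the amino acid stress factor ATF4, was higher in Enshi black, by 6.56-fold over Large White (4.62 to 9.58) and 6.47-fold over Chinese wild boar (4.57 to 9.39). VEGFA, which low oxygen induces, was lower in Enshi black, by 2.88-fold against Large White (2.71 to 3.06) and 2.45-fold against Chinese wild boar (2.30 to 2.60). None of the 5 was called between Chinese wild boar and Large White. Over all expressed gene IDs, 4.69% were higher and 8.39% lower in Enshi black against Large White, and 4.03% and 7.10% against Chinese wild boar. Chinese wild boar had 2.96% higher and 3.74% lower than Large White. Against Large White the list's median log2 folds were 0.46 in Enshi black and -0.23 in Chinese wild boar, and that of Enshi black against Chinese wild boar was 0.15. The part of stress in the IGFBP1 level was not tested.

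Of 9 expressed liver transcription factors, none was called in either comparison with Large White, with medians of -0.06 in Enshi black and -0.19 in Chinese wild boar. Over all expressed gene IDs, 8.39% were lower and 4.69% higher in Enshi black, and 3.74% and 2.96% in Chinese wild boar. FOXA2, a forkhead factor of hepatocytes, had 50.8, 79.7 and 52.3 CPM.

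The labelled tissue was checked with markers. Albumin (ALB) had 66508 CPM, 25310 CPM and 53648 CPM, and 6 of 7 matched hepatocyte markers were expressed. The seventh, APOA1, had 2, 0 and 2 counts under its matched gene ID. The summed level of the 7 was 108160 CPM, 61502 CPM and 92400 CPM, with ALB the largest part in each library. ALB, AHSG and HNF4A were lowest in Large White. TTR, at 2543, 4107 and 3497 CPM, and CPS1, at 1024, 1378 and 1254 CPM, were highest there. The part of hepatocyte content in the levels of the 4 genes was not tested. Among the hepatocyte markers only ALB was called, higher than in Large White in both other libraries, and the list medians were 0.25, 0.08 and -0.05. Of all expressed gene IDs, 4.69% were higher than in Large White in Enshi black and 2.96% in Chinese wild boar.

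Hepatocytes differ along the lobule, and markers of both ends were examined. Of 5 expressed periportal markers, Enshi black had 2 lower than Large White and 3 lower than Chinese wild boar, with none higher and none called between Chinese wild boar and Large White. All expressed gene IDs were lower in 8.39% and 7.10% for the pairs with Enshi black. Medians were -0.70, -1.22 and -0.08 for those pairs in turn. The glutaminase GLS2 was 45.0-fold lower in Enshi black than in Large White (31.2 to 67.5). ASS1 alone of the 5 went the other way, at 1653, 1437 and 1363 CPM. The 5 periportal markers summed to 2399 CPM, 2753 CPM and 3078 CPM. Of 6 pericentral markers, Enshi black had 2 higher and none lower against each of the other libraries (medians 0.83 and 0.82), and none was called between Chinese wild boar and Large White (0.08). The shares called higher over all expressed gene IDs were 4.69% against Large White and 4.03% against Chinese wild boar. OAT, ornithine aminotransferase, was 2.40-fold higher than in Large White (2.17 to 2.65). Enshi black, with the lowest IGF1, IGFALS and IGFBP1, was thus also the library with called differences in both zonal lists. Their part in the levels of the 4 genes was not tested.

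Markers of other liver cells also varied with the libraries. The summed level of 6 Kupffer cell and macrophage markers was 1501 CPM, 1920 CPM and 1731 CPM, with none at 0. In Enshi black 3 were called lower than in Large White and 1 lower than in Chinese wild boar, and in Chinese wild boar 1 was lower than in Large White (medians -1.19, -0.41 and -0.55), beside 8.39%, 7.10% and 3.74% of all expressed gene IDs. CSF1R was 7.12-fold lower in Enshi black than in Large White (6.35 to 8.01). The sum of 7 stellate cell and fibroblast markers was 1155 CPM, 334 CPM and 544 CPM, with LUM at 0 in Large White. Among the 6 expressed, Enshi black had 5 higher than Large White and 3 higher than Chinese wild boar, and Chinese wild boar 1 higher than Large White, with none lower (medians 1.84, 0.88 and 0.63), beside 4.69%, 4.03% and 2.96% of all expressed gene IDs higher. COL3A1, a fibrillar collagen, was 3.60-fold higher in Enshi black compared with Large White (3.49 to 3.72). PDGFRB alone of the 6 stood lower in Enshi black than in Large White, at 15.9 against 18.0 CPM, without a call.

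The 4 endothelial markers summed to 501 CPM, 740 CPM and 386 CPM, the 4 cholangiocyte markers to 29.1, 26.3 and 17.0 CPM, and the 4 leukocyte markers to 99.7, 149 and 40.6 CPM. None of these was at 0. In Enshi black against Large White, 1 endothelial marker was lower, no cholangiocyte marker was called, and 1 leukocyte marker was higher and 1 lower (medians 0.23, 0.07 and -0.35). In Chinese wild boar against Large White, 1 endothelial marker and 3 leukocyte markers were lower and no cholangiocyte marker was called (medians -0.37, -2.17 and -0.10 for endothelial, leukocyte and cholangiocyte markers). In Enshi black against Chinese wild boar, 1 endothelial, 1 cholangiocyte and 2 leukocyte markers were higher and none lower (medians 0.09, -0.01 and 1.80). Over all expressed gene IDs, 8.39%, 3.74% and 7.10% were lower in these 3 comparisons in turn, and 4.69%, 2.96% and 4.03% higher. STAB1, a sinusoidal scavenger receptor, was the endothelial marker called in both comparisons with Large White, at 2.68-fold lower in Enshi black (2.59 to 2.79) and 2.97-fold lower in Chinese wild boar (2.85 to 3.09). It made up 499 of the 740 CPM in Large White. The other endothelial markers stood above the Large White level in Enshi black without a call, PECAM1 at 1.16, KDR at 1.46 and LYVE1 at 1.19 times. Whole liver was sequenced, so fewer cells of a type and less RNA per cell cannot be told apart. The part of these cell types in the levels of IGF1, IGFALS, IGFBP1 and PRLR was not tested.

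Genes with the most similar pattern were sought over the 3 libraries among 8060 named, expressed genes with at least 100 counts in all. Similarity was the Euclidean distance between log2 CPM values, each gene centred on its own mean. With 3 libraries many genes match by the nature of the measure, and the matches are a description. Nearest to IGF1 was PDK4 at a distance of 0.02, followed by TMEM209 (0.06) and SLC16A13 (0.08). PDK4 thus went with IGF1 in both order and size, at 27.8, 75.9 and 166 CPM.

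Nearest to IGFALS were DCAF12 (distance 0.05), HGH1 (0.05) and KLHL22 (0.06), with 31 genes within 0.25. Nearest to PRLR were the fatty acid desaturase FADS2 (0.02), the cholesterol synthesis enzyme HMGCS1 (0.14) and CFAP43 (0.18), with 11 genes within 0.25. FADS2 had 287, 61.2 and 215 CPM. IGFBP1 had no gene within 0.25, and only BEX1, at 0.43, lay within 0.5. Its range over the libraries was wide enough that few of the genes compared came near it, whereas IGF1 had 9 genes within 0.25.

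**Figure D5:**
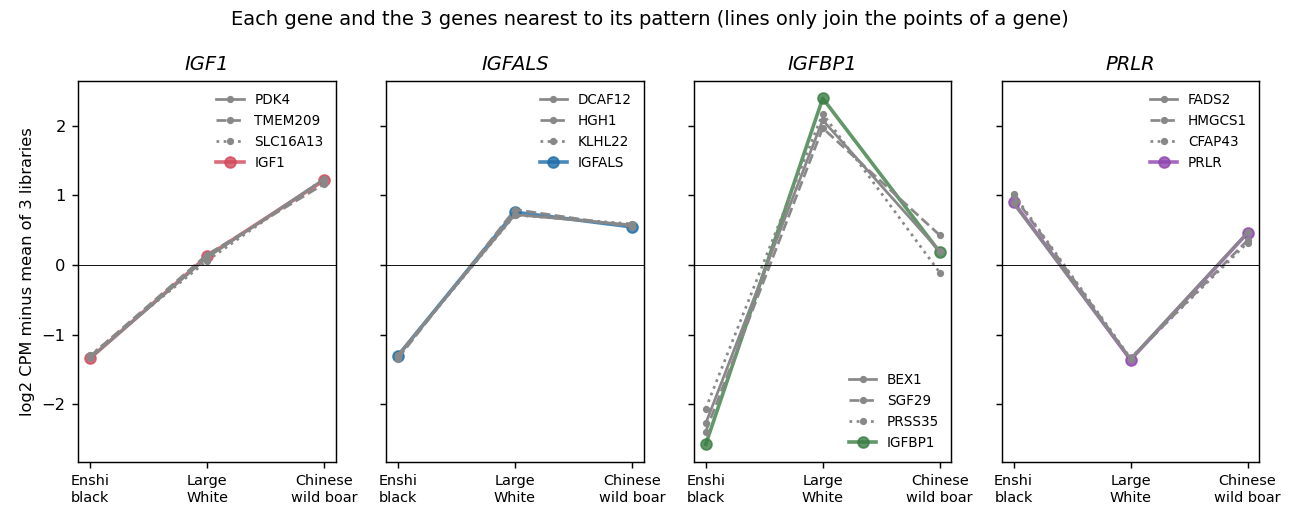
Each panel shows 1 of the 4 genes (coloured) and the 3 genes nearest to it (grey) as log2 CPM minus the gene's mean over the 3 libraries, which stand on the horizontal axis. The grey lines cover those of IGF1, IGFALS and PRLR closely, while the nearest gene to IGFBP1, BEX1, lies 0.43 away.

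The close neighbours described here were not called. In the gene order of RefSeq on Sscrofa11.1, a later build than the one the reads were aligned to, near protein-coding genes with a matched and expressed gene ID were taken. PARPBP, beside IGF1, stood at 2.07 times the Large White level in Enshi black (1.07 to 4.20) from 32 against 14 counts. NUBP2, beside IGFALS, stood at 0.804 (0.728 to 0.887). TNS3, on the far side of IGFBP3 from IGFBP1, stood at 1.17 (1.12 to 1.23), and AGXT2, beside PRLR, at 1.08 (1.05 to 1.12). None of these 4 was called in the other 2 comparisons either. Further out, NUP37, the third gene beyond IGF1, was called higher in Enshi black, at 39 counts against 6 in Large White, and EME2, the third beyond IGFALS, was called lower at 22 against 82 counts.

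In that gene table no other gene overlaps IGFBP1 or PRLR, 2 uncharacterised loci overlap IGF1 and 1 overlaps IGFALS, and without a stated strand setting their reads cannot be told apart. By the length of the gene in the genome, IGFBP1 and IGFALS fell in the shortest of 10 equal groups of expressed genes, whose median log2 fold of Enshi black against Large White was -0.14. PRLR was in group 4, with a median of -0.07, and IGF1 in group 9, with 0.13. The part of gene length in the levels of the 4 genes was not tested.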

How the data were processed

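The deposited files hold whole-number read counts per Ensembl gene ID, not normalized, 1 table per library. Per the submitters' processing notes the tools were TopHat2 2.1.0, HTSeq 0.6.1 and edgeR 3.16.3, and the build Sscrofa10.2. For the strand setting and annotation release, nothing is given in the sources used here. The 5 rows that name no gene were left out, with reads on no feature making up 18.9% to 22.0% and ambiguous reads 1.89% to 2.49%. Symbols matched 11804 of 25322 gene IDs.

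Genes with a CPM of at least 1 in at least 1 library were kept, and TMM factors (1.04, 0.978 and 0.979 for Enshi black, Large White and Chinese wild boar) came from edgeR 4.0.16 in R 4.3.3. Folds have 95% Clopper-Pearson intervals, and folds of count ratios have exact conditional odds ratio intervals (Python 3.11.15, scipy 1.17.1, numpy 2.4.6, pandas 2.3.3). Reads carry no stated molecular identifiers, so intervals and floors of 3 counts cover counting error only. The rule for calls was first tested on simulated counts with counting noise alone. Those counts held no spread between animals, so that test does not cover differences between animals. Figures used matplotlib 3.10.9.

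The 4 genes and all gene lists were chosen with earlier results of these data known. Named were the 4 genes, every matched gene of the axis, up to 3 called genes per direction of each other list (not all are printed) and the 3 genes nearest to each of the 4. FOXA2, FOXO1, ANGPTL4, PPARGC1A, PECAM1, LYVE1, C1QA, CD68, CD14, PDGFRB and the neighbouring genes were named with their values already seen. A few listed or neighbouring genes are not reported here.. Alternatives were DESeq2 1.42.0 size factors, total counts, an interval of 0.1% error, near bounds of 1.5 and 4, assumed coefficients of variation of 0.2 and 0.4 between animals, no expression filter and a filter of 10 CPM.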

Additional observations from a re-analysis of the deposited data

How the results depend on the processing

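Of 210 alternative values, all 129 folds stayed on the same side of 1 as the main one and 81 were counts of genes. In addition, the scaling alternatives changed no call of the 4 genes. Total counts moved the median log2 fold of all expressed gene IDs to 0.10 for Enshi black against either other library. IGFBP1 passed the size rule for Enshi black against each other library under every alternative, including an assumed coefficient of variation (between animals) of 0.4. The other calls of the 4 genes were lost under at least 1 alternative named here. No paired analysis was possible because each breed has 1 library.

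Folds below are ratios of the first-named library to the second. With the interval of 0.1% error, IGF1 (0.359) for Enshi black against Large White, together with PRLR (3.70) and the IGFALS to IGF1 ratio (0.404) for Chinese wild boar against Large White, no longer passed. A near bound of 4 removed the same 3, and PRLR (5.05) and IGFALS (0.239) for Enshi black against Large White, IGFALS (0.277) for Enshi black against Chinese wild boar, as well as the IGFBP1 to IGFALS ratio for Chinese wild boar against Large White (0.251). A near bound of 1.5 added IGF1 (2.14) for Chinese wild boar against Large White, while the IGFBP1 to IGFALS ratio (0.530) was added for Enshi black against Chinese wild boar.

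An assumed coefficient of variation of 0.2 removed IGF1 for Enshi black against Large White (0.360), PRLR (3.65), the IGFALS to IGF1 ratio (0.404) and the IGFBP1 to IGFALS ratio (0.251) for Chinese wild boar against Large White. At 0.4 these 4 were lost again (0.360, 3.65, 0.404 and 0.251), as were IGF1 (0.169) and IGFALS (0.277) for Enshi black against Chinese wild boar, IGFALS (0.239), PRLR (4.99) and the IGFBP1 to IGFALS ratio (0.133) for Enshi black against Large White, and IGFBP1 for Chinese wild boar against Large White (0.217). These assumed values stand in for animals that were not sampled, and the true spread was not measured.

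Of the 25 expressed axis genes, 5 passed for Enshi black against Large White, 4 for Enshi black against Chinese wild boar, 3 when Chinese wild boar was set against Large White. These counts include the 4 genes, and 1 of the other 21 passed in each comparison. Over all expressed gene IDs, 4.69% were higher and 8.39% lower for the first pair. The shares were 4.03% and 7.10% for the second and 2.96% and 3.74% for the third. Nothing about the axis is read from its counts. For Enshi black against Large White, 1 axis gene passed at a near bound of 4, 1 at an assumed variation of 0.4 and 3 at 10 CPM. For Chinese wild boar against Large White, 1 passed with the interval of 0.1% error, 6 at a bound of 1.5, 1 at 4, 1 and 0 at assumed variations of 0.2 and 0.4, and 1 at 10 CPM. For Enshi black against Chinese wild boar, 2 passed at a bound of 4 and 1 at an assumed variation of 0.4.

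Every change of threshold changed the counts over all expressed gene IDs, and the larger changes are listed by pair below. Among smaller changes with the interval of 0.1% error, Enshi black had 821 lower against Large White and 728 lower against Chinese wild boar. For Chinese wild boar against Large White, 279 were higher with that interval and 271 at 10 CPM. The 10 CPM filter tested 8136 gene IDs in place of 13228, so its counts have a smaller base. For Enshi black against Large White, 621 were higher and 1110 lower. Higher counts were 406 with the interval of 0.1% error, 1531 and 150 at bounds of 1.5 and 4, 268 and 126 at assumed variations of 0.2 and 0.4, and 352 at 10 CPM. Lower counts were 1972 and 444 at the bounds, 649 and 399 at the variations, and 638 at 10 CPM. For Chinese wild boar against Large White, 391 were higher and 495 lower. Higher counts were 979 and 87 at the bounds and 153 and 72 at the variations, and lower counts 306 with the interval of 0.1% error, 1141 and 114 at the bounds, 211 and 97 at the variations, and 275 at 10 CPM. For Enshi black against Chinese wild boar, 533 were higher and 939 lower. Higher counts were 315 with the interval of 0.1% error, 1303 and 117 at the bounds, 240 and 108 at the variations, and 276 at 10 CPM. Lower counts were 1673 and 390 at the bounds, 559 and 352 at the variations, and 544 at 10 CPM. Depth limits PRLR most, at 31 counts in Large White.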
